A study of Mus musculus with 4 samples.

Results

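The regions described here are stretches of accessible DNA at the ends of protein-coding genes that were called in stimulated, phenelzine-treated CD8+ T cells and in none of 3 companion libraries. The peaks of 4 deposited lists were joined into regions wherever they overlapped by at least 1 bp on chromosomes 1 to 19 and X. A region was kept if it had a peak in the stimulated phenelzine list alone and came within 1 kb of where a gene begins or ends. This gave 412 members. They were 6.07% of the 6784 gene-end regions of all lists and 20.4% (exact 95% interval 18.7 to 22.2) of the 2019 regions of that list alone, out of 15237 merged regions, of which the list held 13.3% alone. Each member held exactly 1 peak. Presence and absence of a peak chose the members, so their absence from the other lists is the rule and not a result.

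The assay was ATAC-seq, in which Tn5 transposase cuts and tags open chromatin. The cells were CD8+ lymphocytes of Balb/c mice, described as tumour-infiltrating in the title of the series. The 4 groups were unstimulated untreated, unstimulated phenelzine, stimulated untreated and stimulated phenelzine cells, with 1 library each. Stimulated cells had received PMA and ionomycin for 2 h, a pair of agents that switch on protein kinase C and calcium signals downstream of the T cell receptor. The sources used here do not say how phenelzine was given, which tumour was used, how many animals were pooled or how the cells were isolated. No test between conditions was possible, and every interval below covers counting error only.

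Accessible DNA at a gene start usually marks a promoter that is free of nucleosomes and open to transcription factors and RNA polymerase. At housekeeping genes such promoters are rich in CpG and stay open in resting cells, while stimulation of T cells opens further sites through AP-1, NFAT and NF-kB factors. Phenelzine blocks monoamine oxidases and also LSD1, a demethylase of histone H3 encoded by Kdm1a that works in repressor complexes.

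The DNA under the strongest members shows what kind of promoter they lay on. Of the 412 members, 230 overlapped a RefSeq promoter window (GRCm38.p6, the coordinates of mm10) of 250 bases before to 50 after a start site. The windows are printed for the 8 strongest of these peaks, and for Dusp2 and Ppp3cb, the members from the T cell gene lists that had a window. Each runs 5′ to 3′ on the strand of its gene, and the capitals mark the part under the peak. The windows lie at chr13:3918171-3918470 for Net1, chr15:93275130-93275429 for Gxylt1, chr13:114388045-114388344 for Ndufs4, chr12:54795613-54795912 for Snx6, chr5:144014804-144015103 for Ccz1, chr5:36748630-36748929 for Bloc1s4 and chr14:20546524-20546823 for Ppp3cb, all on the minus strand. On the plus strand are chr7:80260965-80261264 for Ngrn, chr4:139352337-139352636 for Emc1 and chr2:127335909-127336208 for Dusp2.
Net1: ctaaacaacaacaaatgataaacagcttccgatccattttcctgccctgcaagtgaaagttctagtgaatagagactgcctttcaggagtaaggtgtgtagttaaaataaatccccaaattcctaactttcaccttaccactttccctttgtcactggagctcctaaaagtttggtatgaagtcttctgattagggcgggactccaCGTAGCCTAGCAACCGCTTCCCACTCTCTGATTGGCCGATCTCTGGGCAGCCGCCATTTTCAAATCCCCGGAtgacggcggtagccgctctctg
Gxylt1: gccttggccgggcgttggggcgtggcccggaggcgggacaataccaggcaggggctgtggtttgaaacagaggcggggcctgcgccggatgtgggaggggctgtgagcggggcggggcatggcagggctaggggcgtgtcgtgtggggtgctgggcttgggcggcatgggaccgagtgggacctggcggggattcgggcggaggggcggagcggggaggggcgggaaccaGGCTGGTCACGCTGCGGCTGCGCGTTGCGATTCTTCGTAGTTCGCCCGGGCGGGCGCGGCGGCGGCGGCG
Ngrn: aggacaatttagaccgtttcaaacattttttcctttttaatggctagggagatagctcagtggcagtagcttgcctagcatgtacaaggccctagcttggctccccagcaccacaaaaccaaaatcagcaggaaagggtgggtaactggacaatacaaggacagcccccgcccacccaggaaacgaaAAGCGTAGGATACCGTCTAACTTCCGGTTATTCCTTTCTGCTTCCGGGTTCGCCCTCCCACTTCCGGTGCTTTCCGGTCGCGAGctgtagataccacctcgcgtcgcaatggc
Emc1: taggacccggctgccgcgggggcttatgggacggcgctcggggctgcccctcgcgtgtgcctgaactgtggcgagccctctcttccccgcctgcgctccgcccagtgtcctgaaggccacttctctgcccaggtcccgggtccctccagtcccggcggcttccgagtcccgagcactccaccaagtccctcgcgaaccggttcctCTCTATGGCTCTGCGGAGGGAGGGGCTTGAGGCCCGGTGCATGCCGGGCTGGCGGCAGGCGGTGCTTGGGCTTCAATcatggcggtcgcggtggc
Ndufs4: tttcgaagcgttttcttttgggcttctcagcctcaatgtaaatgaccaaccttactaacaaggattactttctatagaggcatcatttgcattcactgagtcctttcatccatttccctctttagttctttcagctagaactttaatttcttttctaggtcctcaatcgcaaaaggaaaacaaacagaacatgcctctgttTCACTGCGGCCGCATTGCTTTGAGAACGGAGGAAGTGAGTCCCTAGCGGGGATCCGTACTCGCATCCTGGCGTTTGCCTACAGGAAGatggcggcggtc
Snx6: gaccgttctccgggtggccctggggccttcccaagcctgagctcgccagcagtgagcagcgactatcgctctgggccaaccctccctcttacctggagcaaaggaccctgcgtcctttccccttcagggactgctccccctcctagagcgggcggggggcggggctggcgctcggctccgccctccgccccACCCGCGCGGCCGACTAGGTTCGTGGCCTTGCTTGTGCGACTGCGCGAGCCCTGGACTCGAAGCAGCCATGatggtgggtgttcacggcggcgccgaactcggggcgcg
Ccz1: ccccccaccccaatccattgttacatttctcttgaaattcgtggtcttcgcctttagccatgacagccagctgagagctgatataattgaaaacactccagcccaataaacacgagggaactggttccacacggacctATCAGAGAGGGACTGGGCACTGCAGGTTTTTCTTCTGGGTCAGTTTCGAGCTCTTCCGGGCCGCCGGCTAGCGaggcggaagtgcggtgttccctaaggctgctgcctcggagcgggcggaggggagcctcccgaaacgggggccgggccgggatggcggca
Bloc1s4: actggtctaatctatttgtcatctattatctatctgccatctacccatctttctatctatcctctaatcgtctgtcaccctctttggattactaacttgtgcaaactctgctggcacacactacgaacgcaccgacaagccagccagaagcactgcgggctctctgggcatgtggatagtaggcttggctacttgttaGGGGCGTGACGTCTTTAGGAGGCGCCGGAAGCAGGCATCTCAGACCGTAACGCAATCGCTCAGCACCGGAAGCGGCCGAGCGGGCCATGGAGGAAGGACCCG
Dusp2: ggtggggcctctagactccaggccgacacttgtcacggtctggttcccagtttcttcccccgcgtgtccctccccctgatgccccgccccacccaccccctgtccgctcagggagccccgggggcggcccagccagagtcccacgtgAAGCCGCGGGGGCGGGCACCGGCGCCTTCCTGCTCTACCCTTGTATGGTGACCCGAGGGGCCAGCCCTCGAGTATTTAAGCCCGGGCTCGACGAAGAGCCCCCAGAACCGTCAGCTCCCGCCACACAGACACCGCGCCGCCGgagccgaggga
Ppp3cb: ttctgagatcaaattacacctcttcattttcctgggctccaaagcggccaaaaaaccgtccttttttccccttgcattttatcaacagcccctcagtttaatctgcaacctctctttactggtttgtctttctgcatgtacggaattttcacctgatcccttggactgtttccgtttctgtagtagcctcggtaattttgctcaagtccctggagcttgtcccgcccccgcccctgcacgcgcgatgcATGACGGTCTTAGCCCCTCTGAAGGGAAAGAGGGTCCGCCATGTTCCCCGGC

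The peaks ran across the start site of 9 of these 10 windows, and that of Ccz1 ended 40 bp before it. Ngrn, which encodes a factor needed for the mitochondrial ribosome, carried the ETS letters CCGGAAG, read on the other strand, 3 times in its peak. Bloc1s4, a subunit gene of the complex that builds lysosome-related organelles, carried them 2 times in its peak and Ccz1, a part of the exchange factor that activates Rab7 on late endosomes, 1 time. The peak of Net1, a guanine nucleotide exchange factor gene, held 1 NF-Y match (CCAAT). The peak parts at Emc1, Ndufs4, Snx6 and Ppp3cb held none of the 11 motifs searched. The Dusp2 window had 3 Sp/KLF matches (GGGCGG) and 1 E-box (CACGTG), with 1 of the Sp/KLF matches under the peak.

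The 4 lists held 6519 to 10405 peaks each on these chromosomes, 9322 of them in the stimulated phenelzine list. Reads per library are unknown. The background coverage implied by each list was 0.392 in unstimulated untreated, 0.471 in unstimulated phenelzine, 0.493 in stimulated untreated and 0.489 fragments in stimulated phenelzine cells, so the library of the members was close to the stimulated untreated one and the unstimulated untreated one was the lowest. Markers of the labelled cell type were thin. No list had a region within 20 kb of Cd8a, Cd8b1 or Cd2, while 4 of the 9 CD8 T cell markers in the gene table had one in the stimulated phenelzine list and 6 in the stimulated untreated list. Of 34 markers of other cells 3 had a gene-end region in any list and 0 had a member, a base too small to read against the share of all genes. A region within 20 kb was listed for 12 of them in stimulated phenelzine, 13 in stimulated untreated, 8 in unstimulated phenelzine and 6 in unstimulated untreated cells. Those in the stimulated phenelzine list included the regulatory T cell gene Foxp3, the B cell gene Cd79a and the neutrophil receptor gene Csf3r, and none of the lists had one for Epcam, Itgam or Col1a1. A region within 20 kb can belong to a neighbouring gene. In the stimulated phenelzine list the region near Foxp3 was the member just upstream of the Ppp1r3f start. The region near the epithelial gene Cdh1 was the member across the Tango6 start. The part of other cells in the members was not tested.

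The members were short and weak peaks, as were the gene-end regions of each other list alone. Their width was 68 bp in the narrowest, 97 bp at the median and 638 bp in the widest. The deposited −log10 q, the strength of a peak within its own list, ran from 1.03 through a median of 2.02 to 6.18, and the deposited fold enrichment from 3.52 through 4.38 to 6.84. If a peak's local background equals the one the list implies, these folds stand for a pileup of about 4.25, 5.52 and 9.19 overlapping fragments. A −log10 q of at least 2 was reached by 214 members, of at least 3 by 74 and of at least 5 by 8. In the gene-end sets of the other single lists the median width was 92 bp for unstimulated untreated and 90 bp for unstimulated phenelzine cells, and the median −log10 q, each within its own list, 1.94 to 2.28 over the 3 sets. Gene-end regions that the same list shared with the other 3 had a median −log10 q of 4.12 and a median width of 277 bp. Those shared with the stimulated untreated list alone had 2.48 and those shared with the unstimulated phenelzine list alone 2.44. The 1607 distal regions of the stimulated phenelzine list alone were weaker than the members at the median, with 1.78, and 8.77% of them against 18% of the members reached 3. The strongest distal region had 21.98, above the members' maximum of 6.18.

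**Figure D1:**
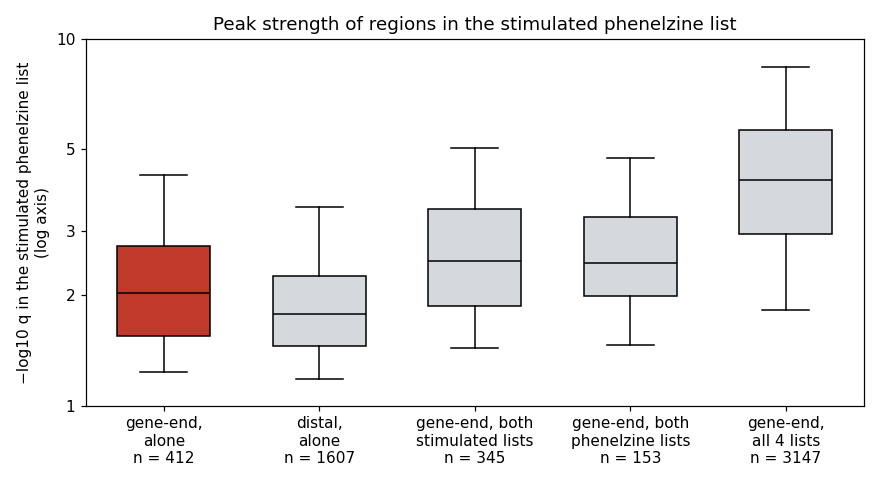
−log10 q in the stimulated phenelzine list (log axis) for 5 sets of its regions; boxes span the quartiles, the line is the median and whiskers run from the 5th to the 95th percentile. The members (red, median 2.02) sit above the distal regions of the same list alone (1.78) and below the gene-end regions of all 4 lists (4.12).

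The strongest member lay across the start of Cwf19l1, a gene named for its likeness to a yeast spliceosome-associated protein, at chr19:44135837-44135914, with −log10 q 6.18 and fold 6.84. The nearest peak of each other list lay 10502 bp away. The Net1 peak at chr13:3918193-3918264 had −log10 q 6.06, with no peak of another list nearer than 306879 bp. The Gxylt1 peak (chr15:93275112-93275199, 5.81) was of another kind. Gxylt1 encodes a xylosyltransferase that modifies Notch, and its peak lay 21 bp from an unstimulated phenelzine peak, 49 bp from a stimulated untreated peak and 119 bp from an unstimulated untreated peak. All 4 lists thus had a peak at the Gxylt1 start, and the member was a piece that did not overlap the others.

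Ngrn shared its peak (chr7:80261152-80261235, −log10 q 5.70) with the end window of Ttll13, a tubulin-modifying enzyme gene. Neurl3, a ubiquitin ligase gene, had a peak 236 bp from its end (chr1:36264287-36264366, 5.30), and a stimulated untreated peak lay 1993 bp from it. Mrto4, which acts in maturation of the large ribosomal subunit, and Emc1, a subunit of the membrane protein insertase of the endoplasmic reticulum, start on opposite strands, and 1 peak covered both starts (chr4:139352542-139352618, 5.25). Ndufs4, a subunit gene of respiratory complex I, had −log10 q 5.07 at chr13:114388057-114388143. Around Ndufs4 the other lists had no peak for 229502 bp or more. Snx6, a sorting nexin gene, had 4.96, Mcat, an enzyme gene of mitochondrial fatty acid synthesis, 4.90, and Caml, which encodes a receptor for membrane insertion of tail-anchored proteins, 4.77. Rras2, a Ras-family GTPase gene, had 4.74, with the peak 644 bp inside the gene from its start.

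**Figure D2:**
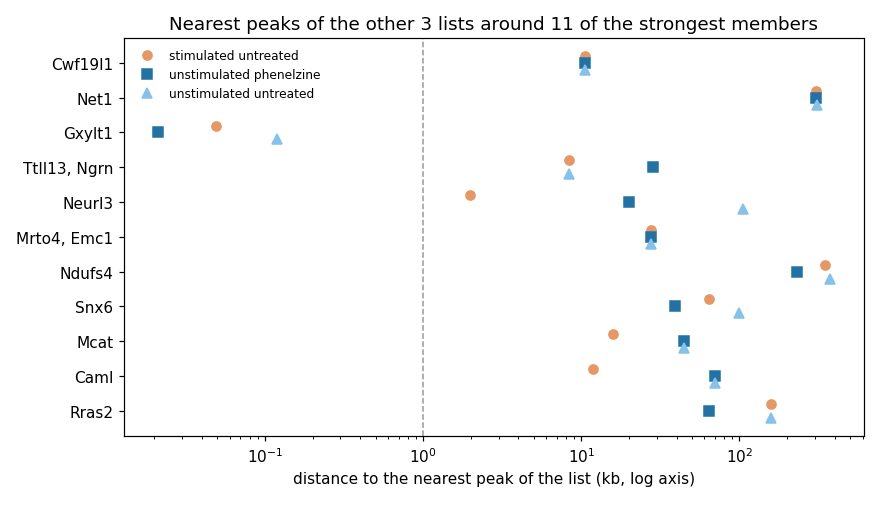
Distance in kb (log axis) from 11 of the 12 strongest members, named by gene, to the nearest peak of the stimulated untreated (circles), unstimulated phenelzine (squares) and unstimulated untreated (triangles) lists; the dashed line is 1 kb. At Gxylt1 the other lists had peaks within 119 bp, and at the other 10 members shown none lay within 1 kb.

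Most members lay at genes whose ends held no region of another list. This was so for 321 of 412 members, while at 91 (22.1%, 18.2 to 26.4) at least 1 gene had such a region. The median −log10 q was 2.0 with such a region and 2.03 without one. A peak of another list lay within 1 kb of 69 members (16.7%, 13.3 to 20.7) and within 100 bp of 16. By list, 54 members had a stimulated untreated peak within 1 kb, 41 an unstimulated phenelzine peak and 35 an unstimulated untreated peak. These lists held 10405, 7929 and 6519 peaks, so the order of the counts follows list length. The median distance to the nearest peak of any other list was 18081.5 bp, and 49 members had none within 100 kb. Il13ra2, a decoy receptor gene for IL-13 on the X chromosome, was the most isolated, at 3028872 bp. The single-list sets of the other libraries had similar shares of genes marked in another list, at 20.6% (17.4 to 24.0) for stimulated untreated, 22.8% (18.2 to 27.9) for unstimulated phenelzine and 19.9% (14.0 to 26.9) for unstimulated untreated cells.

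The widest members were of a different shape from the strongest. A peak of 638 bp spanned the starts of Cd3eap, a subunit gene of RNA polymerase I despite its name, and Ppp1r13l, a p53 inhibitor gene, with −log10 q 1.76. Cep162 and Cep97, centriole and cilium genes, had peaks of 420 and 413 bp across their starts, Cyp51, an enzyme gene of cholesterol synthesis, 414 bp, the kinase gene Dstyk 411 bp and the deubiquitinase gene Usp9x 405 bp. Their −log10 q lay between 1.48 and 2.59. In all, 20 members were over 300 bp wide.

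Members lay mainly at gene starts. Strand was known for all genes of 312 members, and 273 of these (87.5%, 83.3 to 91.0) touched the start window alone, 29 the window at the far end of a gene alone and 10 both kinds. The 29 at far ends were weaker, with a median −log10 q of 1.49 against 2.11 for the 273. Of the 295 members near a start of known strand 136 (46.1%, 40.3 to 52.0) held the start base itself, and the centre of the peak lay a median of -8.5 bp from the start, a negative value being upstream, with quartiles of -56.5 and 88.3 bp. The centre was upstream of the start in 159 and downstream in 136. For the gene-end regions of all 4 lists the start base was held in 83.0% (81.5 to 84.4), by wider regions, and the start windows alone were touched by 95% (94.1 to 95.8). In the stimulated untreated list alone these shares were 48.4% (43.8 to 53.0) and 87.5% (84.2 to 90.3). At 29 members 2 genes that start on opposite strands shared the peak, as at Mrto4 and Emc1.

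**Figure D3:**
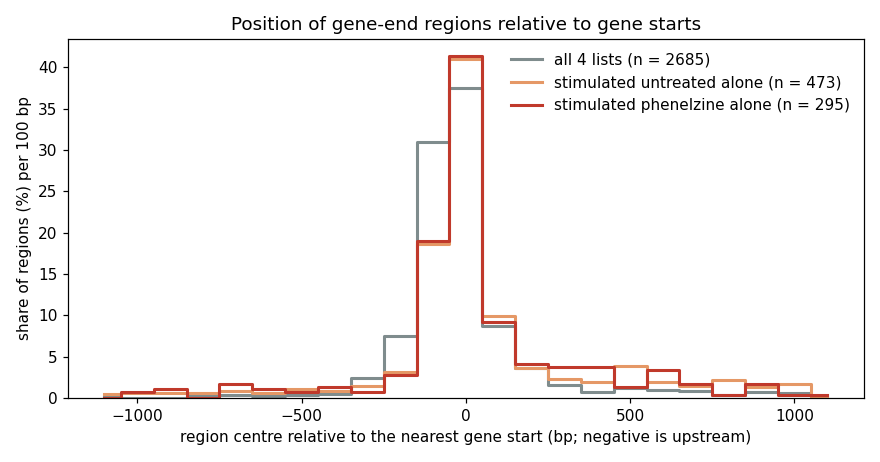
Share of regions (%, per 100 bp) by the position of their centre relative to the nearest gene start in bp, for the members (red, n = 295 with a start of known strand), the stimulated untreated list alone (orange, n = 473) and all 4 lists (grey, n = 2685). All 3 lines peak at the start, and the line for all 4 lists leans further upstream, with a median of -36.5 bp against -8.5 bp for the members.

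The promoters under members were CpG-rich. Over their 266 promoter windows the median ratio of observed to expected CpG was 0.782, with a ratio of at least 0.6 in 82.3% (77.2 to 86.7). These windows lay under 230 members, and windows that share a peak were counted separately. The intervals here and for the motifs below are therefore too narrow. In the 14950 windows without a gene-end region of any list the median was 0.362 and the share 31.8% (31.0 to 32.5), and in the 3230 windows under regions of all 4 lists they were 0.860 and 92.4% (91.4 to 93.3). In the other single-list sets the share was 73.4% (68.8 to 77.6) for stimulated untreated, 73.6% (67.1 to 79.4) for unstimulated phenelzine and 77.4% (68.2 to 84.9) for unstimulated untreated cells, below the members' value but with intervals that overlap theirs. Median GC content was 62.7% under members and 62.3% under regions of all 4 lists. Base composition was not part of the rule that chose the members, but gene starts as such are rich in CpG.

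Motifs were searched on both strands of the same windows, and a match is a string of letters and not a bound site. For the Sp/KLF and ETS letters the share under members was near that under regions of all 4 lists. GGGCGG, the core of Sp and KLF sites, lay in 69.5% (63.6 to 75) of the windows under members, 74.8% under regions of all 4 lists and 46.6% of all 21019 windows. The ETS letters CCGGAAG lay in 24.8% (19.7 to 30.5) against 27.1% and 11.7%. For the NF-Y, NRF1 and CRE letters the share under members was lower than under regions of all 4 lists, and the intervals did not overlap. Those intervals treat windows that share a peak as separate. CCAAT of NF-Y lay in 35.7% (30.0 to 41.8) under members against 53.1% (51.3 to 54.8) under regions of all 4 lists and 38.5% of all windows. NRF1, searched as GCGCATGCG, lay in 1.5% (0.411 to 3.81) against 8.70% (7.75 to 9.72) and 2.36%. The CRE TGACGTCA lay in 1.13% (0.233 to 3.26) against 4.89% (4.17 to 5.69) and 2.26%. Under the stimulated untreated list alone the shares were 67.8% (63.1 to 72.3) for Sp/KLF, 20.8% (17.0 to 25.1) for ETS, 37.8% (33.1 to 42.6) for NF-Y, 1.94% (0.840 to 3.78) for NRF1 and 3.87% (2.23 to 6.22) for CRE. Each of these intervals overlapped that of the members, and the differences were not tested.

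For the factors that PMA and ionomycin switch on, the share over all windows lay within the members' interval. TGANTCA of AP-1 lay in 5.26% (2.91 to 8.67) of their windows and 7.04% of all windows, TGGAAA of NFAT in 16.2% (12 to 21.2) and 19.5%, and GGACTTTCC of NF-kB in 0.376% (0.00952 to 2.08) and 0.352%. TGTGGT of Runx lay in 10.9% (7.42 to 15.3) and 14.7%, CACGTG of E-box factors in 7.89% (4.95 to 11.8) and 7.91%, and AAGATGGC of YY1 in 4.14% (2.08 to 7.28) and 3.06%. Matches of different motifs were counted separately and may overlap.

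**Figure D4:**
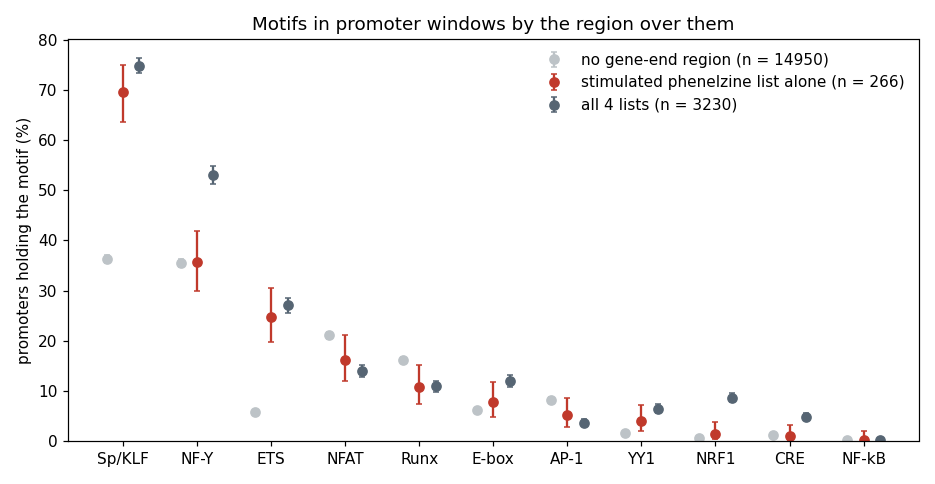
Share (%) of promoter windows holding each motif on either strand, with exact 95% intervals, for windows without a gene-end region (light grey, n = 14950), under members (red, n = 266) and under regions of all 4 lists (dark grey, n = 3230). Members lie near the regions of all 4 lists for Sp/KLF and ETS, and near the uncovered promoters for NF-Y.

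The 412 members touched 466 protein-coding genes, 2.15% of all 21627 and 6.18% of the 7542 with a gene-end region in any list. Genes of T cell function were found among them at about the share of all genes. Of 189 genes in 12 lists, mostly of T cell function, 3 had a member at an end (1.59%, 0.329 to 4.57), 1 each from 3 lists, and this was 3.45% (0.717 to 9.75) of the 87 with a gene-end region in any list. No member lay at the ends of the 15 cytokine and chemokine genes, 12 activation receptors, 12 genes of exhaustion and inhibitory receptors, 10 effector transcription factors, 12 genes of naive and memory cells, 15 T cell receptor and CD8 identity genes, 22 protein kinase C, RasGRP and MAP kinase genes, 18 genes of LSD1 complexes and amine oxidases or 14 housekeeping genes. In that order, 3, 2, 4, 3, 3, 3, 15, 7 and 11 of these genes had a gene-end region in any list. Over those genes every interval held 6.18%, so a count of 0 does not set these lists apart.

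Dusp2, a nuclear phosphatase gene that is switched on early after T cell activation and turns off MAP kinases, had the peak shown above at chr2:127336056-127336197 with −log10 q 1.70 and fold 4.14. It was the single region within 20 kb of Dusp2 in any list, and the nearest peaks of the other 3 lists lay 65787 to 65838 bp away. Ppp3cb, the gene of a catalytic subunit of calcineurin, the phosphatase through which calcium activates NFAT, had a peak of 305 bp across its start at chr14:20546271-20546575 with −log10 q 1.25. No other list had a region in its locus, and the nearest peaks lay 94331 to 94362 bp away. Nkg7, a granule membrane gene of killer cells, had a peak 577 bp beyond its far end at chr7:43438823-43438907 with −log10 q 1.26. At Nkg7 the unstimulated phenelzine list had a gene-end region of its own, 1742 bp from the member. These peaks were all below the members' median of 2.02.

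Among genes grouped by symbol, members lay at a few genes each in most families, and over genes with any gene-end region the interval of splicing factors alone missed the 6.18% of all genes. That miss was narrow and depends on which genes the symbol rule counted. Of 75 histone genes 6 had a member (8.0%, 2.99 to 16.6), against 11.3% (4.27 to 23.0) of the 53 with any gene-end region. These 6 stood for 4 peaks, since H2ac20, H2ac21 and H2bc21 shared the one at chr3:96220906-96221036 (−log10 q 2.57). The others lay at H4c2 (2.76), the linker histone gene H1f0 (2.30) and H2ac4 (1.51). Ubiquitin enzymes had 14 of 340 (4.12%, 2.27 to 6.81), which was 8.92% (4.96 to 14.5) of those with any region. The strongest were the ligase gene Rnf145 (4.13), the F-box genes Fbxo28 (3.55) and Fbxo8 (3.01, in a peak shared with Cep44) and the deubiquitinase gene Otud7b (2.30). Centrosome and cilium genes had 5 of 75 (6.67%, 2.2 to 14.9), with Cep44 (3.01), Ift81 (2.64), Cep97 (2.59) and Cep162 (1.68). When set against the genes with any gene-end region, the intervals of all these groups held the 6.18% of all genes.

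Groups with mitochondrial functions had shares near those of all genes once genes with any gene-end region were the base. Oxidative phosphorylation subunits had 5 of 96 (5.21%, 1.71 to 11.7, against 2.15% of all genes), which was 6.76% (2.23 to 15.1) of those with any region against 6.18%. Ndufs4 (5.07) stood ahead of Ndufa3 (1.59), Cox19 (1.55) and Uqcrb (1.46), and Ndufb7 was the last at 1.38. Cox19 is an assembly factor that the symbol rule placed here. Mitochondrial import and carrier genes had 4 of 72 (5.56%, 1.53 to 13.6), or 8.33% (2.32 to 20) of those with any region. They were Slc25a20, the carnitine carrier (4.21), Timm23, the core of the inner membrane translocase (3.20), Slc25a4, an ADP/ATP carrier (3.04), and Tomm22, an outer membrane import receptor (2.68). For the mitochondrial ribosome the count was 1 of 78, Mrps27 (1.46), and for the cytosolic ribosome 2 of 100, with Rpl6 (1.46) among them.

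Transcription machinery had 6 of 114 genes (5.26%, 1.96 to 11.1), which was 6.38% (2.38 to 13.4) of those with any region against 6.18%. Among them were the RNA polymerase II subunit gene Polr2g (3.90), the polymerase III subunit gene Polr3d (2.70), the Mediator gene Med23 (2.55) and the TFIIH gene Gtf2h4 (2.16). The Gtf2h4 peak lay 5 bp from a stimulated untreated peak. Zinc-finger factors, led by Zfp236 (4.53), had 14 of 465 (3.01%, 1.66 to 5.0), which was 6.67% (3.69 to 10.9) of those with any region. Splicing and RNA-binding factors had 3 of 171 (1.75%, 0.363 to 5.04), which was 2.13% (0.441 to 6.09) of those with any region. They were Prpf18 (3.26), Sf3b3 (2.83) and Sf3b4 (2.52). The symbol rule did not count Snrnp27 and Zrsr2, member genes that are splicing factor genes by function, so the low share depends on that rule. MAP kinases and phosphatases had 4 of 78, or 8.70% (2.42 to 20.8) of those with any region. Mapkapk2, a kinase gene downstream of p38 (2.48), stood ahead of Dusp2, the scaffold gene Mapkbp1 (1.64) and Map3k10 (1.43). The Mapkbp1 peak lay beyond the far end of that gene and ran across the start of the neighbouring Jmjd7. Vesicle traffic genes had 8 of 231, or 4.82% (2.10 to 9.27) of those with any region. They were led by Snx6 (4.96), the coatomer gene Copb1 (3.13), the sorting nexin gene Snx29 (3.07) and the COPII gene Sec24b (2.69).

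The remaining groups had few or none. Chaperones had 3 of 90, with Dnajc21 (2.42) and Dnajb12 (1.46) among them. Cyclins and their kinases had 2 of 53, Ccni (2.60) and Cdk2 (1.54), and other solute carriers 5 of 328. Of the genes with any region these were 4.84% (1.01 to 13.5), 5.56% (0.680 to 18.7) and 6.02% (1.98 to 13.5), against 6.18% of all genes. Of the 4 of 127 genes that the symbol rule counted as replication and repair, Rad51d, a recombinase paralogue gene (2.0, in a peak shared with Rffl), is one by function, while Cdc37 is a chaperone gene and Cdc42ep2 and Cdc42ep3 encode effectors of the small GTPase Cdc42. Translation factors had 1 of 70, Eif4a2 (1.91), and histone-modifying enzymes 1 of 70, Kmt2b (1.83), a methyltransferase gene. No member lay at 51 proteasome subunits, 36 aminoacyl-tRNA synthetases, 19 Irf and Stat factors or 1110 olfactory receptors, of which 38, 29, 10 and 2 had a gene-end region in any list. The intervals of these 4 groups, over genes with any region, all held 6.18%, so a count of 0 does not set them apart.

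**Figure D5:**
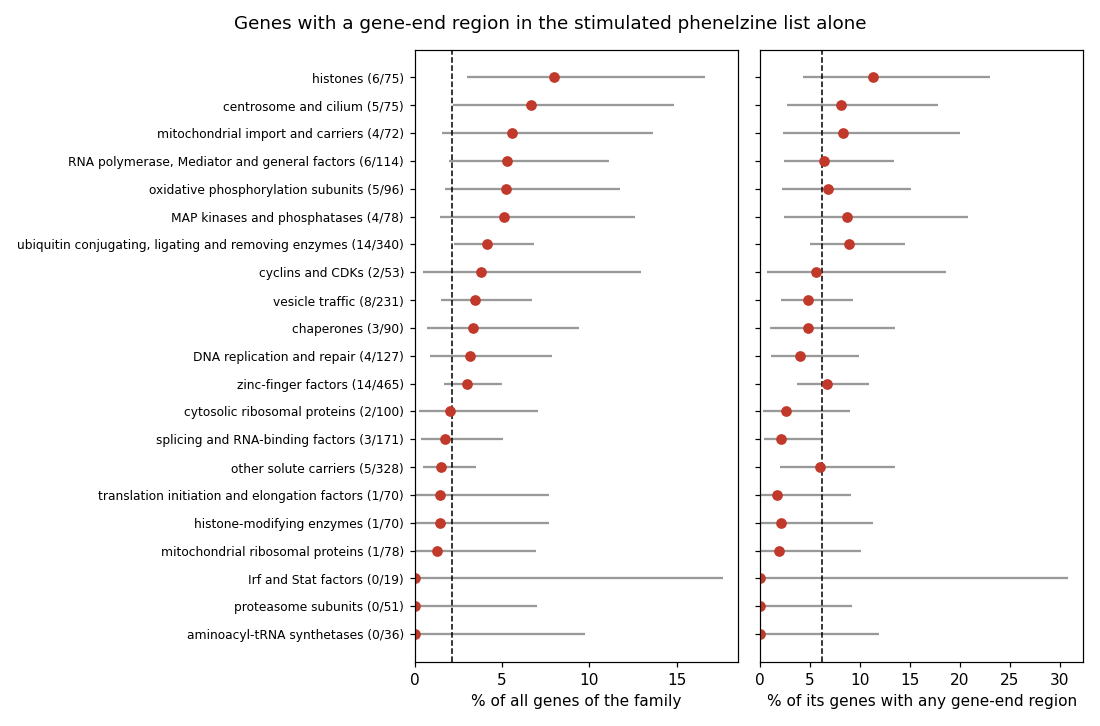
Share (%) of the genes of each family, olfactory receptors left out, with a member at an end, with exact 95% intervals, over all genes of the family (left) and over those with a gene-end region in any list (right); brackets give genes with a member of all genes, and dashed lines mark 2.15% and 6.18% for all genes. The whole intervals of histone, centrosome and ubiquitin genes lie right of the line on the left, and on the right the interval of splicing factors ends just short of 6.18%. Genes that share a peak, such as H2ac20, H2ac21 and H2bc21 or Fbxo6 and Fbxo44, are counted separately. The intervals of the histone and ubiquitin groups are therefore too narrow.

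At 6 genes 2 separate members lay at the ends. Lgals1, the galectin-1 gene, had one 6 bp from an end (chr15:78926630-78926719, −log10 q 2.57) and one further out (1.19). Tspo, a mitochondrial outer membrane gene, had one near each end (2.18 and 1.20). In its locus, the gene with 20 kb on either side, the lists of both sets of unstimulated cells held 0 regions. Stimulated cells had 1 without phenelzine and 4 with it. The neighbouring Mcat had the same counts, and its locus overlaps that of Tspo. The counts include the members at Tspo and Mcat, which were chosen for their absence from the other lists. Much of this difference is therefore set by the rule and is not a result. Mcur1, a regulator gene of the mitochondrial calcium uniporter, had peaks of 2.13 and 1.36 at its start, and Oat, which encodes ornithine aminotransferase, 1.72 across its start and 1.23 inside the gene. Mtmr11, a myotubularin-related gene, had 2.30 before its start, shared with Otud7b, and 2.52 beyond its end, shared with Sf3b4, and the uncharacterised gene 2610301B20Rik had 1.98 and 1.70 at 458 and 551 bp from an end.

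By chromosome, members made up 9.81% (6.51 to 14.0) of the gene-end regions of chromosome 15, the highest share, and 2.48% (0.681 to 6.24) of those of chromosome 18, the lowest. Over all chromosomes the share was 6.07%, which the chromosome 18 interval held and the chromosome 15 interval lay just above. Both were picked as the extremes among all chromosomes, and the differences were not tested. The Lgals1, Mcat, Tspo and Gxylt1 members all lay on chromosome 15, Mcat and Tspo being neighbours. Of the 466 member genes 33 also had a gene-end region held by another single list alone: 22 of them by the stimulated untreated list, 7 by that of unstimulated phenelzine cells and 4 by that of unstimulated untreated cells. These lists alone touched 688, 345 and 184 of the 7542 genes with any gene-end region, so the order of the counts follows set size. Sharing beyond set size was not tested. Examples among the 33 genes are Dok2, an adaptor gene that restrains T cell receptor signals (2.95, with a stimulated untreated peak 34 bp away), Zfp36l2, an mRNA decay gene (2.38, 9 bp), and Rac1, a small GTPase gene (1.32, with an unstimulated phenelzine peak 16 bp away).

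The limits of the rule passed through a continuum. The members with the lowest −log10 q were at Hsf2bp (1.03), Cpt1a, the carnitine palmitoyltransferase gene (1.05), and B4galt3 (1.06). Just inside the window lay Ppp2ca, with a peak 999 bp inside the gene from its start (−log10 q 1.28). The peaks of Lipa, at 958 bp (1.47), and Cep95, at 954 bp (1.53), lay upstream of the gene start. Just outside lay regions of the list alone near Ktn1 at 1007 bp from the nearest gene end of either kind (1.79), Gm15517 at 1020 bp (3.06) and Cttnbp2nl at 1022 bp (1.71). The members at Eif4a2, Tcf7l2 and Lrrc59 directly abutted a peak of another list without sharing a base. On the other side, peaks of the stimulated phenelzine list at Cetn2, Mapk1ip1l and Map1lc3a met a peak of 1 other list by 7, 8 and 8 bp and were therefore not members.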

How the data were processed

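ATAC-seq peak lists of 4 libraries were used, 1 per condition. The submitters' processing notes name the mm10 build, MACS2, HOMER, Picard, Bowtie2 2.2.5 and Trimmomatic 0.33; the sources used here do not give parameters. The authors deposited broad peaks called per library, with a score (10 times −log10 q, rounded down, in at least 99.98% of the peaks of each list), a fold enrichment as a ratio, and p-values and q-values on the −log10 scale. Strengths are read within 1 list. A tag in the peak names, less120, is not explained in the sources used here.

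Peaks were merged with pandas 2.3.3 and coordinates are 1-based. Genes were the 21627 protein-coding genes of RefSeq GRCm38.p6; strand came from the promoter table and was known for 17273 genes, 366 of the 466 with a member. Exons were not used here. Intervals are exact Clopper-Pearson 95% intervals (SciPy 1.17.1). Implied background was solved from each list's most frequent pair of fold and −log10 p, taking fold as (pileup + 1)/(background + 1) and p as a Poisson tail. Merging and window steps were tested on simulated data.

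The members and gene lists were chosen with earlier results of these data known. Named were the 12 strongest and 6 widest members, genes with 2 or more members, members from the fixed lists, up to 4 per symbol family, the members without another list's region and those at the limits; promoters printed were the 8 strongest and those from the fixed lists. Some genes the rule names are not reported here. Genes named otherwise were chosen after their values were seen. Alternatives changed merging, peak strength, list length, window and crowded places.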

Additional observations from a re-analysis of the deposited data

How the results depend on the processing

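Joining peaks up to 100 bp apart, leaving out crowded places and leaving out the unstimulated untreated list, an alternative chosen after seeing the data, moved none of the 6 summary values beyond the interval of its reported value or, for counts, beyond 1.5 times. With −log10 q of at least 2 in the stimulated phenelzine list there were 214 members at 244 genes, with a gene-end share of 27.4%. With at least 3 there were 74 members at 83 genes, the gene-end share was 34.4%, the median width 88 bp and the share whose gene had a region of another list 16.2%. With at least 3 in all 4 lists the gene-end share was 49.3%, the median width 108 bp, the share with such a gene 9.09% and the share with another list's region within 1 kb 6.82%; of the 352 regions then found 74 were among the 412. Lists of equal length gave 30.3%, 15.9% and 12.3% for the shares at gene ends, with such a gene and with a region within 1 kb, and 207 of the 412 members remained. Joining peaks up to 500 bp apart gave 10.4% and 3.93% for the last 2 shares, and an overlap of at least 50% of the shorter peak 33.5% and 29.1%. Windows of 500 bp gave a gene-end share of 17.5% and 16.7% with such a gene, and windows of 2 kb 24.3% and 32.0%. For 34 gene lists and families, 333 of 374 values stayed within the interval of the reported share, and the 41 outside belonged to 19 of them. No paired analysis was possible because each condition had 1 library. The depth of each library is unknown, and an absent peak is not an absence of fragments.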

Other observations

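Genes outside the fixed lists held some members of interest to T cell biology, and the choice of those named was made once their values were known. Adaptors of innate and TNF receptor signalling included Tirap (−log10 q 2.63) and Ticam1 (1.96), which act below Toll-like receptors, the ubiquitin ligase genes Traf3 (2.11) and Traf5 (2.01), the kinase gene Ripk1 (2.19), and the nucleic acid sensor gene Zbp1 (1.60). The Traf3 peak lay 608 bp inside the gene and the Traf5 peak 413 bp from its start. Traf3, Traf5, Ticam1 and Zbp1 each had a region of another list in their end windows. The Ripk1 peak lay 45 bp upstream of a RefSeq start site of Ripk1 and across the start of the neighbouring Serpinb6a, with no peak of another list for 160164 bp. Il6, a cytokine gene, had 1.61 at 194 bp from its start, and Socs1, the feedback inhibitor of cytokine receptors, 1.94 across its start.

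Among small GTPase genes, Rras2 (4.74), Rala (2.29, across its start) and Rac1 (1.32) had members; they were picked by hand, with no count of the family. Negative regulators of receptor signals included the adaptor genes Dok2 (2.95) and Pag1 (2.18), and Bcl2l11, which encodes the pro-apoptotic factor Bim, had 2.02. Of lysosome regulators, the transcription factor genes Tfeb (3.79) and Mitf (2.02) each had a member. The unfolded protein response gene Atf6 had 4.45, with stimulated untreated and unstimulated phenelzine peaks 740 and 761 bp away.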
